A study of Homo sapiens with 8 samples.

Results

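Keratin genes of both types were examined for islands of H3K27me3 and H3K4me3 in PC9 cells. The members were the protein-coding genes on chromosomes 12 and 17 whose symbol is KRT followed by a number and at most 1 letter in the GENCODE annotation on GRCh37. There were 55 such genes of 20136 protein-coding genes. Of these, 29 are type I genes (28 on chromosome 17, and KRT18 on chromosome 12) and 26 are type II genes. By the place where their proteins are best known, 5 were listed as simple epithelial, 20 as stratified epithelial, 9 as hair follicle sheath, 17 as hair shaft and 4 as other keratins. Each gene was taken with 2000 bp upstream of its start, and coverage is the percent of this stretch under islands.

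PC9 is a human lung adenocarcinoma line, and all libraries came from this line. Cells had been treated for 5 days with DMSO or with 1 μM GSK126, a small molecule inhibitor of EZH2, the enzyme that trimethylates lysine 27 of histone H3. For each antibody there were 2 libraries from DMSO-treated and 2 from GSK126-treated cells, called replicates 1 and 2. Chromatin of the D. melanogaster cell line OSS and an antibody to the D. melanogaster histone variant H2Av had been used as a spike-in.

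Keratins are the intermediate filament proteins of epithelial cells, and each filament is built from pairs of a type I and a type II chain. Simple epithelia such as the lung lining use KRT8 with KRT18, together with KRT7 and KRT19, whereas skin, mucosa and hair use other pairs in each layer. H3K27me3 is a repressive mark placed over silent genes, often in broad domains, and H3K4me3 marks the starts of genes that are active or poised.

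Islands are regions that the SICER algorithm found to hold more sequencing tags than a random background, each with a score. The same libraries were listed after 2 normalizations, and the difference between them matters for every comparison below. For the standard lists, human tags had been brought to the same number within a replicate by thinning whichever library held more. The H3K4me3 libraries with DMSO had a single list each, which serves both normalizations. In the spike-in lists, the DMSO library kept its tags and the GSK126 library was reduced by a factor taken from D. melanogaster tags. Tag density, read back from the island scores, stood with GSK126 at 23.1% (replicate 1) and 19.6% (replicate 2) of the DMSO density in the H3K27me3 spike-in lists, and at 83.6% and 86.9% in the H3K4me3 spike-in lists. The standard lists gave 100% for both marks, which also shows which libraries had been reduced together. H3K4me3 replicate 2 was shallow, with 0.302 tags per 200-bp window with DMSO compared to 1.77 in replicate 1, and fewer and shorter islands were called in it. Fewer tags make an island less likely to be called, so within the spike-in lists a lower level of the mark and a lower power to call it cannot be told apart.

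Epithelial markers were checked by H3K4me3 at their starts, and all but 1 carried it in both replicates. The window of 1000 bp on either side of the start of KRT7, KRT18 and KRT19 lay 100% under H3K4me3 islands in both DMSO libraries. CDH1, which encodes the epithelial adhesion protein E-cadherin, was at 99.7% and 79.7%. EPCAM, an epithelial adhesion molecule, was at 85.2% in DMSO replicate 1 and at 0% in both libraries of replicate 2, the shallow replicate. Among the lung markers, NKX2-1 had H3K4me3 over 72.4% and 32.4% of its start window with DMSO, whereas NAPSA and SFTPB had none. NKX2-1 and NAPSA also had H3K27me3 islands over part of their stretch in both DMSO libraries. The start windows of PTPRC and CD3E (blood) and of COL1A2 and PDGFRB (fibroblast) held no H3K4me3 island in any library, and CDH5 (endothelium) was at 0.4% in both libraries of replicate 1.

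RefSeq promoter sequences were matched by symbol for 34 of the 55 keratin genes. All 34 were found exactly once on chromosomes 12 and 17 of GRCh37, so that island positions could be read over them. The 6 shown here are the 250 bases before the RefSeq start (the same letters in the GRCh38.p14 table and at the GRCh37 positions given). They stand for the different outcomes over the gene stretch in the spike-in lists. These are KRT73, with H3K27me3 under both treatments, KRT76, KRT2 and KRT9, with H3K27me3 that was reduced or not called with GSK126, KRT5, with H3K4me3, and KRT31, with no island. Over the promoter itself, KRT2 had no H3K27me3 island in DMSO replicate 2 and KRT76 had one in GSK126 replicate 2. CG dinucleotides and the motif TATAAA are in capitals.
KRT73, chr12:53012344-53012593, minus strand: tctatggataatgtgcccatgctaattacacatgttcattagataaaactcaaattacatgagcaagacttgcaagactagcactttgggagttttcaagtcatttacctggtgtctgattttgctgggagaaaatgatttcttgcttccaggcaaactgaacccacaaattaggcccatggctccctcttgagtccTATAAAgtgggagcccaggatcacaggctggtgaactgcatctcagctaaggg
KRT76, chr12:53171130-53171379, minus strand: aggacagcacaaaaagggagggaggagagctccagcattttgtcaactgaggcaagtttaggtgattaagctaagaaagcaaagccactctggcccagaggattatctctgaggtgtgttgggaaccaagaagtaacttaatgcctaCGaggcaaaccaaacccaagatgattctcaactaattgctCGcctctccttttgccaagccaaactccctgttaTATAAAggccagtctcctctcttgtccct
KRT2, chr12:53045996-53046245, minus strand: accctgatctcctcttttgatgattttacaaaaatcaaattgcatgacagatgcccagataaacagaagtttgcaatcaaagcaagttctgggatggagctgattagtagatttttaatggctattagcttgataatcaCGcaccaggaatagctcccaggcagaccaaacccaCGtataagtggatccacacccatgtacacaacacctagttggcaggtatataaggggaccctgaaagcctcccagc
KRT9, chr17:39728312-39728561, minus strand: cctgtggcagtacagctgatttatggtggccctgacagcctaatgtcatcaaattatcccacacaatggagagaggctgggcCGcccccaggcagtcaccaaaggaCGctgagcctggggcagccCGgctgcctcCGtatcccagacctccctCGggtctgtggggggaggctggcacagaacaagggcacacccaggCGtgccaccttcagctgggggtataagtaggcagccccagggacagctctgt
KRT5, chr12:52914179-52914428, minus strand: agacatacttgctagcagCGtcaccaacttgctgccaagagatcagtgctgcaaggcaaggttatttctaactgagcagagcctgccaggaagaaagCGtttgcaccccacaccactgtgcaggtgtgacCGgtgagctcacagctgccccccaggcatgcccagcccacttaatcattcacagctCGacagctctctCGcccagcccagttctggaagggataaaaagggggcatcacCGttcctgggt
KRT31, chr17:39553861-39554110, minus strand: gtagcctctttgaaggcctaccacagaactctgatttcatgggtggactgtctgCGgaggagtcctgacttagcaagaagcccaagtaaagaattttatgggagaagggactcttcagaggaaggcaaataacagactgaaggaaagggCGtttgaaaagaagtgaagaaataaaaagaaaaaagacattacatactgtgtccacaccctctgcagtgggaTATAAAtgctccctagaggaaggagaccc
Few capitals stand in any of them. The 250 bases of KRT73 hold no CG and those of KRT5 and KRT9 hold 6 each. The motif TATAAA begins 29 bases before the start in KRT76 and in KRT31, and 53 bases before it in KRT73.

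With DMSO, the keratin genes were divided between the marks, and no member carried both marks in both DMSO libraries. An H3K27me3 island was present in both DMSO libraries (spike-in lists) at 17 of the 55 genes, or 30.9%, compared to 27.7% of all protein-coding genes. An H3K4me3 island was present in both DMSO libraries at 13 of 55 (23.6%), compared to 67.9% of all genes. Across all protein-coding genes, 13.2% had islands of both marks in both DMSO libraries. A further 22 keratin genes had no island of either mark in any of the lists, compared to 14.1% of all genes.

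H3K27me3 was a feature of the type II cluster. Of the type II genes, 16 of 26 had an H3K27me3 island in both DMSO libraries, and of the type I genes 1 of 29. The type II cluster together with KRT18 spans 784 kb (chr12:52562780-53346690). It contained 36 H3K27me3 islands in each DMSO library, covering 249 kb and 285 kb, or 31.8% and 36.3% of its length. The type I cluster spans 972 kb (chr17:38810917-39783094) and contained 3 islands and 1 island, covering 8.80 kb and 6.80 kb. KRT9, a keratin of the palm and sole, was the type I gene under H3K27me3, at 69.4% and 82.7% of its stretch. In the standard lists KRT9 had no island in DMSO replicate 1 and 70.5% in DMSO replicate 2, so that 0 of the 29 type I genes had an island in both DMSO libraries there.

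Within the type II cluster, H3K27me3 lay in 2 blocks. The larger block ran from KRT71 to KRT79, which holds 11 members over 290 kb, and islands covered 63.4% and 72.5% of it with DMSO. The smaller block ran from KRT83 to KRT75, which holds 5 members over 120 kb, and was covered over 42.4% and 48.5%. Between these blocks, the 73.9 kb from KRT6B to KRT5 held no H3K27me3 island in any list, nor did the stretches from KRT80 to KRT81 and from KRT8 to KRT18 at the ends. The members in the first block are keratins of the inner root sheath of the hair follicle (KRT71 to KRT74), of the epidermis (KRT1, KRT2, KRT77) and of cornea and mucosa (KRT3, KRT4, KRT76), with KRT79 at the end. The members in the second are KRT82 to KRT85 of the hair shaft and KRT75 of the companion layer.

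**Figure D1:**
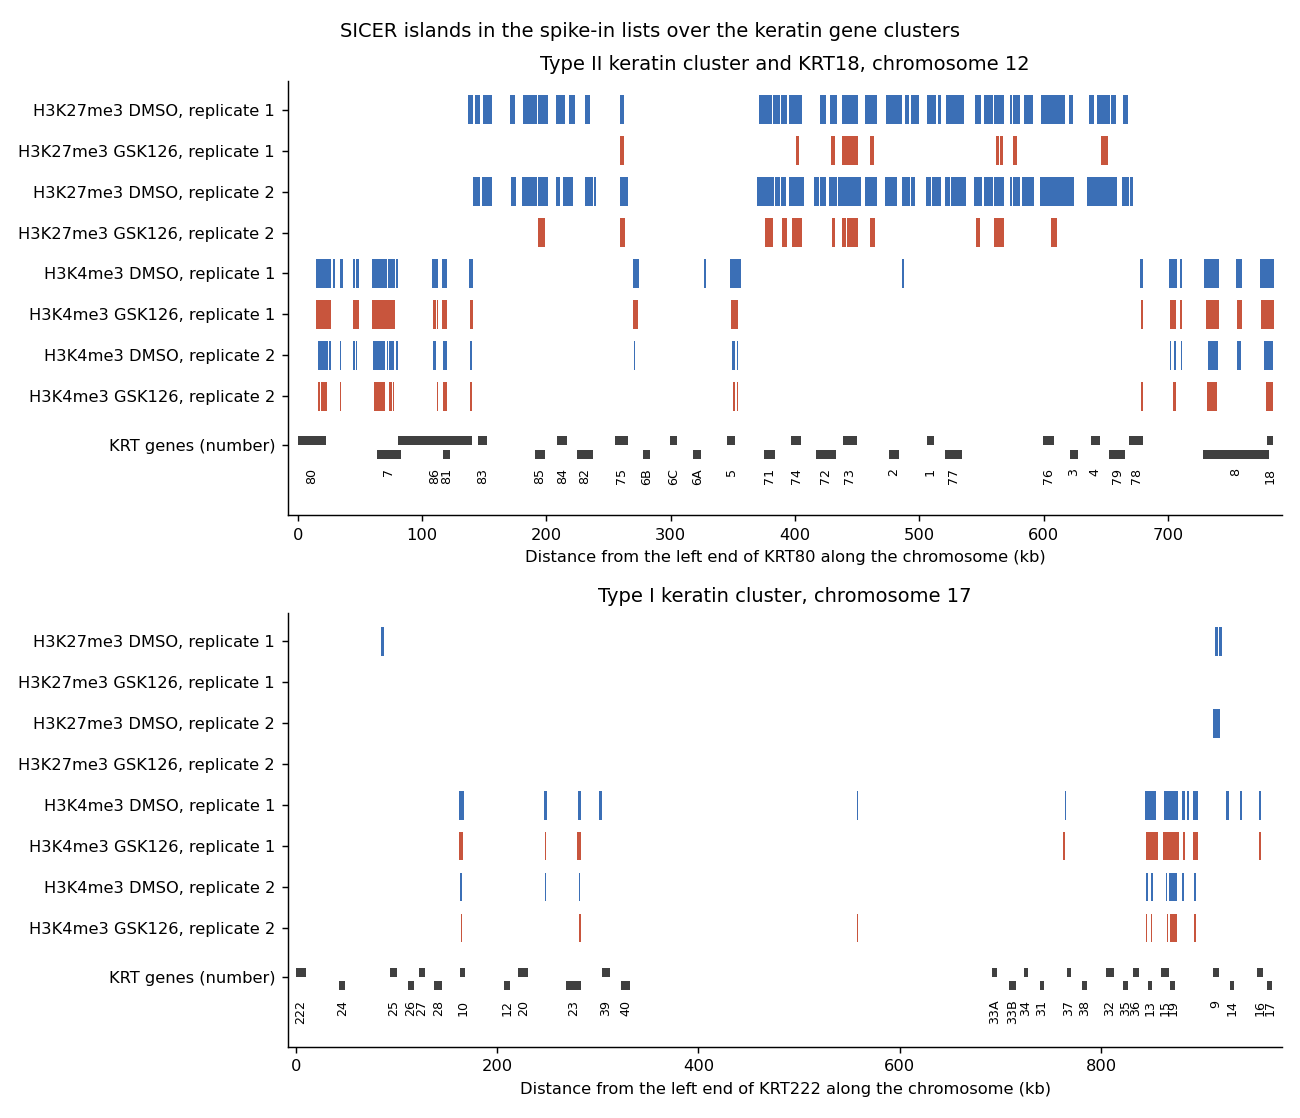
Islands of each library (spike-in lists, with the single list of each H3K4me3 library with DMSO) over the type II cluster with KRT18 and over the type I cluster, plotted as distance in kb from the left end of KRT80 and of KRT222; gene bodies are drawn below, labelled by their number. H3K27me3 with DMSO (blue) fills 2 blocks of the type II cluster, few islands remain with GSK126 (red), and the type I cluster holds H3K27me3 at KRT9 with DMSO and, in replicate 1, at 1 island between genes.

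H3K4me3 with DMSO marked a different set of keratin genes. The 11 genes with H3K4me3 in both DMSO libraries and no H3K27me3 were KRT80, KRT7, KRT81, KRT5, KRT8, KRT18, KRT10, KRT23, KRT13, KRT15 and KRT19. At KRT81 and KRT10 the islands lay outside the start window, which held no H3K4me3 island in any library. An H3K4me3 island in the start window was present in both DMSO libraries at 10 of 55 keratin genes (18.2%), compared to 59.3% of all protein-coding genes. The 11 genes included 4 of the 5 simple epithelial keratins. The fifth, KRT20 of the gut and urothelium, had no island in any list. Of the basal keratins, KRT5 and KRT15 had H3K4me3 and KRT14 and KRT17 had no island of either mark. The remaining 5 genes had islands in 1 library or of both marks: KRT86, KRT78, KRT27, KRT39 and KRT16. Neighbours shared signal in some cases, since the gene models of KRT7, KRT81 and KRT86 overlap, as do the stretches of KRT8 with KRT18 and of KRT15 with KRT19.

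H3K27me3 coverage over the keratin genes was lower with GSK126 in both replicates. The merged keratin stretches amounted to 627 kb, of which 141 kb and 157 kb lay under spike-in islands in the DMSO libraries and 22.1 kb and 41.8 kb in the GSK126 libraries. Both GSK126 libraries lay below both DMSO libraries. GSK126 thus left 15.7% and 26.6% of the covered length, a log2 ratio of -2.29 ± 0.54 (SD, n = 2). Over all protein-coding genes 48.6% and 47.6% were left, a log2 ratio of -1.06 ± 0.02. The ratio over the keratin genes was thus lower than that over all genes in each replicate. With 2 pairs of libraries, the exact sign-flip permutation test (two-sided) gave p = 0.5, the smallest p this design allows.

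When both libraries of a replicate held the same number of tags, the difference was smaller and still present in both replicates. Standard islands covered 147 kb (DMSO) and 81.4 kb (GSK126) in replicate 1, and 134 kb and 80.5 kb in replicate 2. The log2 ratio was -0.79 ± 0.08 (SD, n = 2) compared to -0.31 ± 0.14 over all protein-coding genes. The value for the keratin genes in each replicate (-0.85 and -0.73) was lower than that for all genes (-0.21 and -0.41). The exact sign-flip p was again 0.5.

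**Figure D2:**
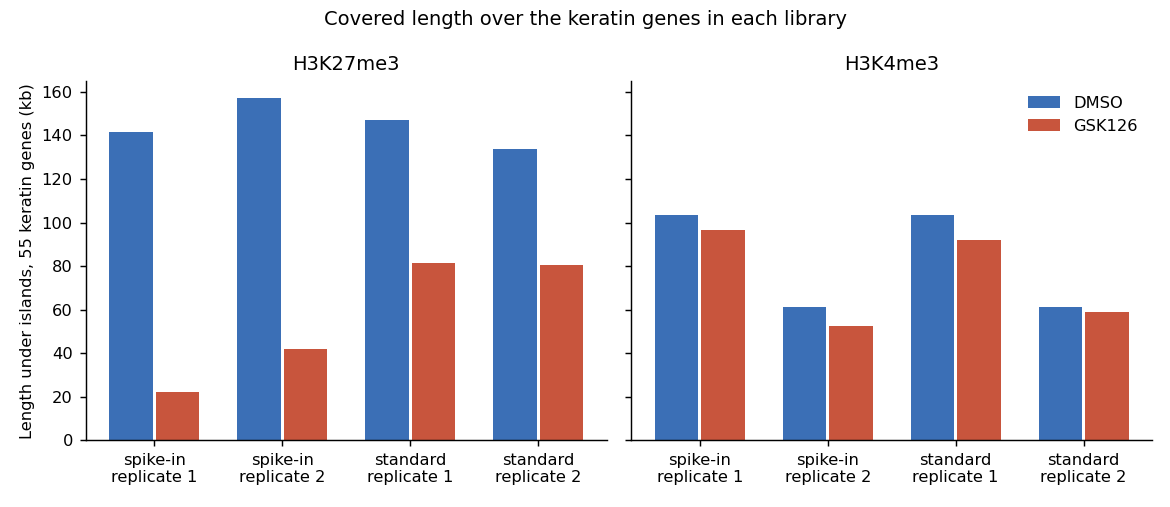
Length under islands (kb, axis from 0) over the merged stretches of the 55 keratin genes in each library, for H3K27me3 and H3K4me3 and for the spike-in and standard lists of replicates 1 and 2. H3K27me3 is lower with GSK126 in each pair (141 to 22.1 kb and 157 to 41.8 kb in the spike-in lists), whereas the bars for H3K4me3 lie close together.

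A keratin gene was called lower when its coverage was at least 10 percentage points lower with GSK126 in both replicates. In the spike-in lists, 15 of 55 keratin genes (27.3%) were called lower for H3K27me3, compared to 15.7% of all protein-coding genes. None was called higher, compared to 0.0149% of all genes. At the same number of genes, 15, both GSK126 libraries lay below both DMSO libraries, compared to 24.1% of all genes. Among genes that had an H3K27me3 island in both DMSO libraries, 15 of 17 keratin genes and 56.8% of all genes were called lower. For 9 of the 17 no island was called in either GSK126 library, which was the case for 8.84% of all protein-coding genes and for 1781 of the 5573 genes with an island in both DMSO libraries. The 9 were KRT83, KRT84, KRT82, KRT2, KRT1, KRT77, KRT3, KRT79 and KRT9.

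KRT1, KRT77 and KRT2, which are epidermal keratins of the larger block, had no H3K27me3 island with GSK126 in the spike-in lists. KRT1, the type II partner of KRT10 in the suprabasal epidermis, was covered over 98.9% and 89.6% with DMSO and had no island with GSK126. KRT77, another epidermal keratin, was covered over 91.8% and 93.8% with DMSO and had no island with GSK126. KRT2, a keratin of the upper spinous and granular layers, was at 100% and 66.9% with DMSO and at 0% in both libraries with GSK126. KRT1 and KRT77 had the largest mean differences among the keratin genes, -94.3 ± 6.63 and -92.8 ± 1.37 percentage points (SD, n = 2). At equal tag number part of this coverage remained, in both GSK126 libraries at KRT77 and in a single GSK126 library at KRT1 and at KRT2. KRT77 was at 97.5% and 79.3% with DMSO and at 59.1% and 79.3% with GSK126 in the standard lists, a mean difference of -19.2 ± 27.2 percentage points that lay within the spread between replicates. KRT1 was at 98.9% and 39.0% with DMSO and at 65.2% and 0% with GSK126 in these lists.

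Keratins of cornea and mucosa showed the same direction, with a partial remnant at some. KRT76, a keratin of the palate and gum, was at 100% in both DMSO libraries, and at 0% and 40.5% with GSK126. In replicate 2, an island of 4.80 kb that spanned its start remained of an island of 27.2 kb with DMSO. KRT4, a mucosal keratin, was at 77.0% and 100% with DMSO and at 13.6% and 0% with GSK126. KRT3 of the cornea had lower coverage to begin with, 37.1% and 41.9%, and none with GSK126. KRT79 was at 58.4% and 77.2% with DMSO and had no island with GSK126.

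In the spike-in lists, islands in both GSK126 libraries were found at 4 of the 55 keratin genes, compared to 3131 of 20136 protein-coding genes. These 4 were keratins of the follicle sheath. In the standard lists the number was 10, compared to 4221 of all genes. Those 10 were 5 follicle sheath, 4 stratified epithelial and 1 hair shaft keratins. All 5 type II genes of the follicle sheath had an H3K27me3 island in both DMSO libraries. In the spike-in lists, 4 of them (KRT72, KRT73, KRT74 and KRT75) were the 4 genes with islands in both GSK126 libraries. Whether the sheath keratins differ from other genes in this was not tested. KRT73, an inner root sheath keratin, was covered over 91.2% with either treatment in replicate 1, and over 100% with DMSO and 83.5% with GSK126 in replicate 2. Its mean difference, -8.25 ± 11.67 percentage points (SD, n = 2), was the smallest among the 17 genes and lay within the spread between replicates. KRT75 of the companion layer was at 27.6% and 50.4% with DMSO and at 24.4% and 29.3% with GSK126. KRT73 and KRT75 were the 2 of the 17 genes that were not called lower.

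Other members of the sheath differed between replicates. KRT71 was at 91.1% and 89.3% with DMSO, and at 0% and 62.3% with GSK126. KRT74 was at 83.8% and 100% with DMSO, and at 23.9% and 81.5% with GSK126. KRT72 was at 59.1% and 75.9% with DMSO, and at 20.1% and 14.5% with GSK126. All 3 were called lower, and for KRT71 and KRT74 most of the coverage remained in replicate 2 and little or none in replicate 1.

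Among the hair shaft keratins under H3K27me3, KRT85 was covered over 89.4% in both DMSO libraries, and over 0% and 52.8% with GSK126. KRT83 was at 67.0% and 82.4%, KRT84 at 67.5% and 69.5%, and KRT82 at 30.5% and 53.6% with DMSO, and none of these 3 had an island with GSK126. KRT9 went from 69.4% and 82.7% to no island, so that the type I cluster held no H3K27me3 island with GSK126. The 2 genes with an H3K27me3 island in a single DMSO library, KRT86 (5.41% in replicate 1) and KRT78 (21.1% in replicate 2), had none with GSK126.

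**Figure D3:**
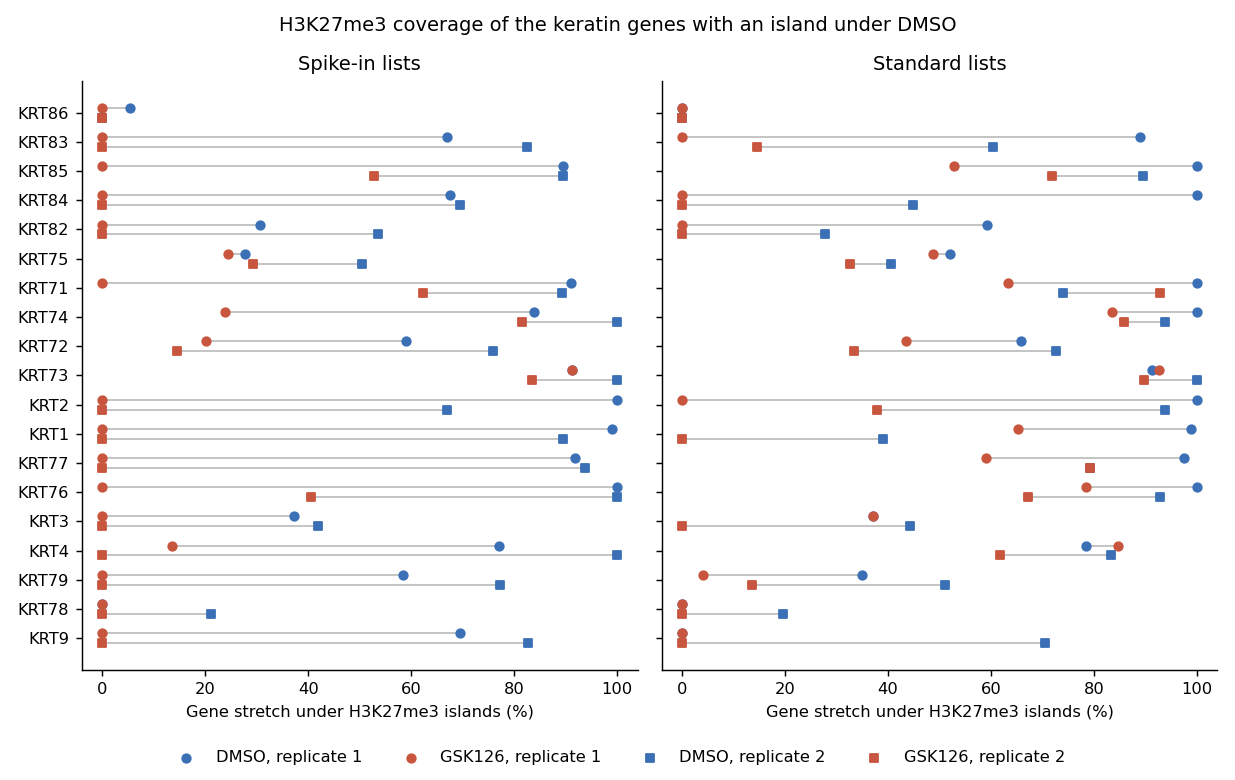
Coverage by H3K27me3 islands (percent of gene body plus 2000 bp upstream) for the 19 keratin genes with an island in at least 1 DMSO library of the spike-in lists, ordered by position, in the spike-in and the standard lists; circles are replicate 1, squares replicate 2, and grey lines join the treatments of a replicate. In the spike-in lists most GSK126 points lie at 0%, while KRT73 stays at 91.2% and 83.5%.

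In the standard lists, 9 of 55 keratin genes (16.4%) were called lower for H3K27me3, compared to 5.01% of all protein-coding genes, and none was called higher (0.214% of all genes). These lists gave an island in both DMSO libraries at 16 keratin genes (29.1%), compared to 25.3% of all genes. Of the 16, 9 were called lower, which was the case for 19.8% of all genes with such islands. The 9 were KRT83, KRT85, KRT84, KRT82, KRT72, KRT2, KRT1, KRT76 and KRT79. KRT84 went from 100% and 44.8% to no island, and KRT82 from 59.1% and 27.8% to no island. These were the 2 keratin genes that had no island in either GSK126 library at equal tag number, compared to 2.3% of all genes. KRT2 was at 100% and 93.8% with DMSO, and at 0% and 37.9% with GSK126. Other members did not move the same way in both replicates: KRT71 was at 100% and 73.9% with DMSO and at 63.3% and 92.9% with GSK126, and KRT4 at 78.4% and 83.3% with DMSO and at 84.7% and 61.7% with GSK126.

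At equal tag number the island scores of a replicate can be compared as well. The score sums, over the windows of an island, the negative log probability of the tag count. The highest score of an island over a keratin gene was lower with GSK126 in both replicates at 14 of the 16 genes with an island in both DMSO libraries, and higher in both at 0. Of all protein-coding genes with such islands, 45.3% were lower in both and 33.9% were higher in both. The median ratio of GSK126 to DMSO was 0.518 and 0.525 over these keratin genes in replicates 1 and 2 (a gene without an island with GSK126 counted as 0), and 0.947 and 0.835 over all genes. The score was at most 1/1.5 of that with DMSO in both replicates at 9 keratin genes, compared to 22.4% of all genes, a threshold that was chosen after the scores were seen.

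The remaining 2 genes, KRT73 and KRT74, went up in 1 replicate and down in the other. The score of KRT73 went from 476 to 478 (replicate 1) and 537 to 441 (replicate 2). That of KRT74 went from 375 to 211 and from 347 to 411. For KRT76, by contrast, it went from 361 to 132 and from 220 to 115. The island at KRT73 had the highest score over any keratin gene with DMSO in both replicates, and stood at the 83.2 and 87.4 percentile of all H3K27me3 islands of its list. The islands over keratin genes were of middle rank in general, with medians at the 65.1 and 67.0 percentile.

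**Figure D4:**
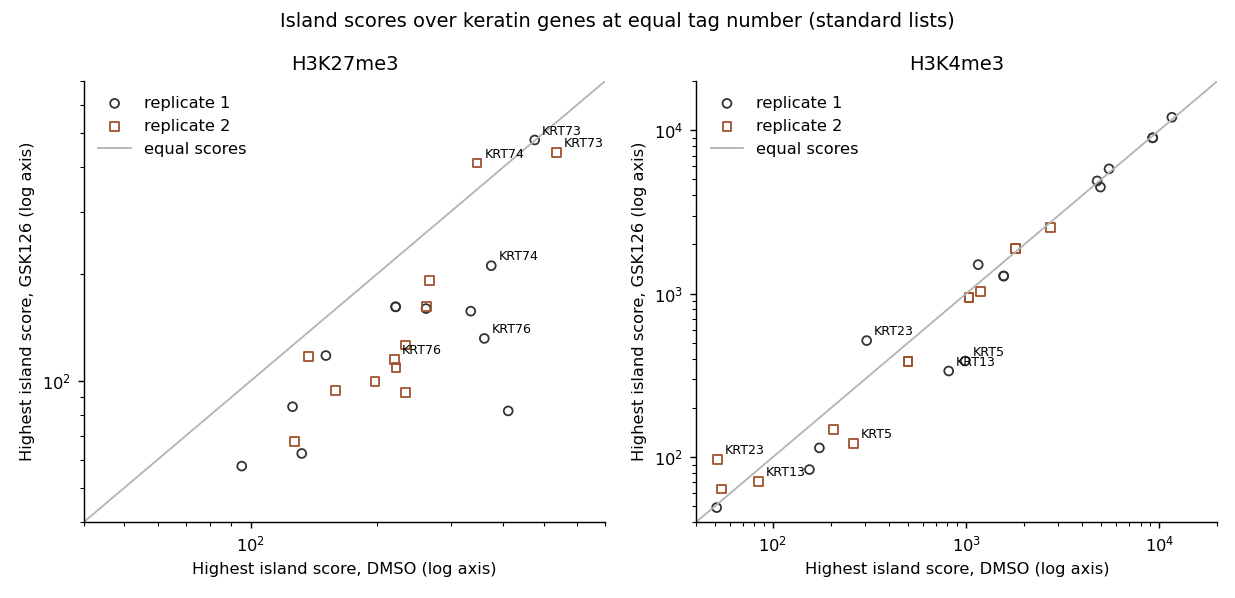
Highest island score over each keratin gene with an island in both libraries of a replicate, DMSO against GSK126, in the standard lists (log axes; circles replicate 1, squares replicate 2, grey line equal scores). For H3K27me3, the points lie below the line except KRT73 in replicate 1 (476 and 478) and KRT74 in replicate 2 (347 and 411); for H3K4me3 most lie near the line, with KRT23 above it and KRT5 below it in both replicates.

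H3K4me3 over the keratin genes differed less in length. The covered length in the spike-in lists was 103 kb (DMSO) and 96.8 kb (GSK126) in replicate 1, and 61.2 kb and 52.3 kb in replicate 2, a log2 ratio of -0.16 ± 0.09 (SD, n = 2) compared to -0.18 ± 0.01 over all protein-coding genes. At equal tag number, covered length with GSK126 was 92.0 kb and 58.8 kb, with a log2 ratio of -0.11 ± 0.08 compared to -0.17 ± 0.09. The difference between the marks in the spike-in log2 ratio was -2.13, and the exact permutation test over the 6 splits of the 4 ratios (two-sided) gave p = 0.333, the smallest p it allows. In these lists GSK126 tags had been reduced further for H3K27me3 than for H3K4me3. A difference between the marks and one in tag removal thus cannot be told apart here. At equal tag number the log2 ratios were -0.79 (H3K27me3) and -0.11 (H3K4me3), and their difference was not tested. All 13 genes with an H3K4me3 island in both DMSO libraries also had one in both GSK126 libraries, whereas 0.233% of all genes (spike-in lists) and 0.119% (standard lists) had lost every island in both. These islands need not lie at the start. The start window of KRT86, which lies inside the KRT7 model, was at 75.85% and 50% with DMSO. With GSK126 it was at 0% in both libraries, in both kinds of lists. That of KRT13 was at 100% and 52.2% with DMSO and at 80% and 42.2% with GSK126 (spike-in lists).

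KRT7, KRT18 and KRT19 of the simple epithelial keratins kept H3K4me3 at their starts. The start windows of KRT7 and KRT19 were at 100% in all 4 libraries, and that of KRT18 was at 100% in all but the spike-in list of GSK126 replicate 2, where it was at 92.7%. At equal tag number, the highest score over KRT7 went from 11616 to 12006 (replicate 1) and 2724 to 2551 (replicate 2). The island at KRT7 ranked 110 of 23875 islands in DMSO replicate 1 and 159 of 18420 in DMSO replicate 2. The GENCODE model of KRT8 starts inside KRT18, 23485 bp from its RefSeq start, so that its start window, at 100% throughout, overlaps that of KRT18. An island within KRT8 apart from KRT18 (chr12:53291601-53303400 in DMSO replicate 1) had a score of 5493 with DMSO and 5803 with GSK126, and in replicate 2 of 1010 and 950. The 300 bases matched as the RefSeq promoter of KRT8 (chr12:53320204-53320503) lie outside this strong island. A weaker island covered their whole length in both DMSO libraries, and in the standard lists 103 bases and 0 bases with GSK126. Whether this matched sequence is the start in use in PC9 was not tested. KRT19 and KRT15 shared their highest island, which went from 9241 to 8985 and from 1798 to 1889. None of these highest scores moved in the same direction in both replicates.

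KRT5 and KRT23 departed from this pattern in opposite directions. KRT5, the type II keratin of basal cells, was covered over 76.8% and 36.6% with DMSO and over 66.8% and 26.6% with GSK126 in the spike-in lists. It was the only keratin gene called lower for H3K4me3, compared to 1.05% of all genes. At equal tag number none was called lower (1.03% of all genes), and KRT5 was at 59.3% and 29.1% with GSK126. None was called higher in either kind of list, compared to 0.0497% and 0.0447% of all genes. Its highest score at equal tag number went from 989 to 387 (replicate 1) and 260 to 121 (replicate 2), ratios of 0.392 and 0.466. A score at most 1/1.5 of that with DMSO in both replicates was found at 1.2% of all genes with H3K4me3 in both DMSO libraries. The island over the promoter shown above for KRT5 had a length of 9.40 kb and 2.40 kb with DMSO and of 6.20 kb and 1.60 kb with GSK126 (spike-in lists). KRT5, which starts at chr12:52914314, has H3K27me3 blocks on both sides. In the spike-in lists, the nearest H3K27me3 island lay 19.3 kb and 18.1 kb from its start with DMSO and 49.3 kb and 23.9 kb with GSK126. In the standard lists, the nearest island began at chr12:52933801 and 52932001 with DMSO and at 52934601 and 52935801 with GSK126.

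KRT23, a type I keratin of chromosome 17, was the keratin gene whose H3K4me3 score at equal tag number was higher with GSK126 in both replicates. Its coverage was 17.7% and 4.72% with DMSO and 24.8% and 10.6% with GSK126, and was the same in both kinds of lists. These differences did not reach 10 percentage points. Its highest score at equal tag number went from 306 to 516 (replicate 1) and 51.6 to 96.2 (replicate 2), ratios of 1.69 and 1.86. A score at least 1.5 times that with DMSO in both replicates was found at 0.256% of all genes with H3K4me3 in both DMSO libraries. The start window of KRT23 was covered over 55.1% and 15.2% with DMSO and over 65.2% and 45.1% with GSK126. No H3K27me3 island lay within 195 kb of the start of KRT23 in any spike-in list. KRT5 and KRT23 were singled out after their scores had been seen, and their difference in direction was not tested.

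The scores of the other genes with H3K4me3 moved less or not in the same way. KRT13, a mucosal keratin, had a score that went from 812 to 336 (replicate 1) and 83.8 to 70.6 (replicate 2). KRT80 went from 4958 to 4487 and from 1186 to 1028. KRT81 and KRT86, hair shaft keratins whose models overlap, shared an island that went from 1564 to 1282 and from 500 to 386. For these 4 genes the score was lower in both replicates, whereas KRT10 of the suprabasal epidermis went up in replicate 1 (1155 to 1505) and down in replicate 2 (205 to 147). The number of keratin genes lower in both replicates was 5 of 13 (25.5% of all genes with such islands), and that higher in both was 1 of 13 (27.8%). KRT78, at the end of the larger H3K27me3 block, had H3K4me3 over 26.2% and 0% of its start window with DMSO and over 46.2% and 16.2% with GSK126. Over its whole stretch, coverage went from 18.06% to 15.05% (replicate 1) and from 3.01% to 7.53% (replicate 2). Its highest score at equal tag number likewise fell in replicate 1 (174 to 114) and rose in replicate 2 (54.4 to 63.7).

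The 22 keratin genes without any island were 19 type I and 3 type II genes. They included KRT6A, KRT6B and KRT6C, KRT14 and KRT17, KRT20, and all chromosome 17 hair shaft keratins except KRT39. Some of these genes hold sequence that occurs more than once in the genome, and uniquely mapped tags cannot be assigned to those parts. The share of 50-base words in their stretches that occur once in GRCh37 ranged from 70.6% in KRT6C to 99.3% in KRT36, with a median of 95.4%. For the 17 genes under H3K27me3 it ranged from 97.4% to 100%. KRT81, with H3K4me3 in both DMSO libraries, was at 62.4%. Over the genes with no island, a low share of unique sequence and an absence of the marks cannot be told apart at KRT6A, KRT6B, KRT6C, KRT14 and KRT17, with 83.2%, 74.4%, 70.6%, 87.9% and 83.8% unique words.

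Gene families related to keratins had log2 ratios of covered H3K27me3 length nearer to 0 than the keratin genes. The 94 keratin-associated protein genes, which encode the matrix between hair keratin filaments, had no H3K4me3 in any library, and 26 had an H3K27me3 island in both DMSO libraries. Covered length over them was 65.6 kb and 66.8 kb with DMSO and 45.6 kb and 53.0 kb with GSK126 in the spike-in lists. The log2 ratio was -0.43 ± 0.13, compared to -2.29 ± 0.54 over the keratin genes, and in the standard lists -0.20 ± 0.04 compared to -0.79 ± 0.08. In each list, the ratio of each replicate was lower over the keratin genes. Over 13 genes of other intermediate filaments, such as VIM, DES and NES, it was -1.32 ± 0.01 in the spike-in lists and -0.28 ± 0.29 in the standard lists. Over 15 genes of desmosomes and plakins, which anchor keratin filaments at the cell border, it was -0.91 ± 0.39 and -0.24 ± 0.01. At the gene level 6 of the 94, 6 of the 13 and 1 of the 15 genes were called lower in the spike-in lists, compared to 15 of 55 keratin genes and 15.7% of all protein-coding genes. The share called lower was thus higher among the other intermediate filament genes (46.2%) than among the keratin genes (27.3%), and this difference was not tested. All these ratios rest on the same 4 libraries.

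The keratin promoters that could be matched were poor in CG dinucleotides. No promoter sequence was matched for 8 of the 11 genes with H3K4me3 and no H3K27me3 (KRT80, KRT7, KRT81, KRT18, KRT23, KRT13, KRT15 and KRT19). The sequence matched for KRT8 lay outside its highest-scoring islands. The values below thus say little about keratin genes with H3K4me3. The 300 bases from 250 before to 50 after the RefSeq start held between 0 and 8 CG in the 34 keratin genes, with a median of 2, compared to a median of 22 over 15318 promoters of protein-coding genes. Grouped by the state of the gene, the median was 2 for 13 genes under H3K27me3, 2 for 3 genes with H3K4me3 (KRT5, KRT8 and KRT10, of which KRT10 had no H3K4me3 over the promoter itself) and 2 for 16 genes without an island. Grouped by islands over the promoter itself in both DMSO libraries, it was 3.5 for the 8 promoters under H3K27me3 (spike-in lists) and 4.5 for the 2 under H3K4me3, compared to 2 for the other members in each case. In the standard lists it was 2 for the 7 promoters under H3K27me3 and 2 for the other members. The ratio of observed to expected CpG had a median of 0.140 compared to 0.768 over all promoters. The motif TATAAA, searched on the coding strand, was present in 18 of 34 keratin promoters (52.9%) compared to 6.92% of all promoters, and on either strand in 20 of 34 (58.8%) compared to 9.59%. It was present on the coding strand in 4 of the 13 promoters of genes under H3K27me3 and in 11 of the 16 without an island. By type, it was present in 14 of 20 type I and in 4 of 14 type II promoters. Apart from KRT9, the 13 promoters belong to type II genes, and the 16 belong to type I genes. The island state and the type of the gene thus cannot be told apart here. H3K27me3 islands of the spike-in lists lay over 8 of the 34 promoters in both DMSO libraries. A single promoter of the 8, that of KRT73, was also under an island in both GSK126 libraries, and 4 were under none. In the standard lists, islands lay over 7 promoters in both DMSO libraries. Of these, 3 (KRT74, KRT73 and KRT76) were also under an island in both GSK126 libraries, and 2 were under none.

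**Figure D5:**
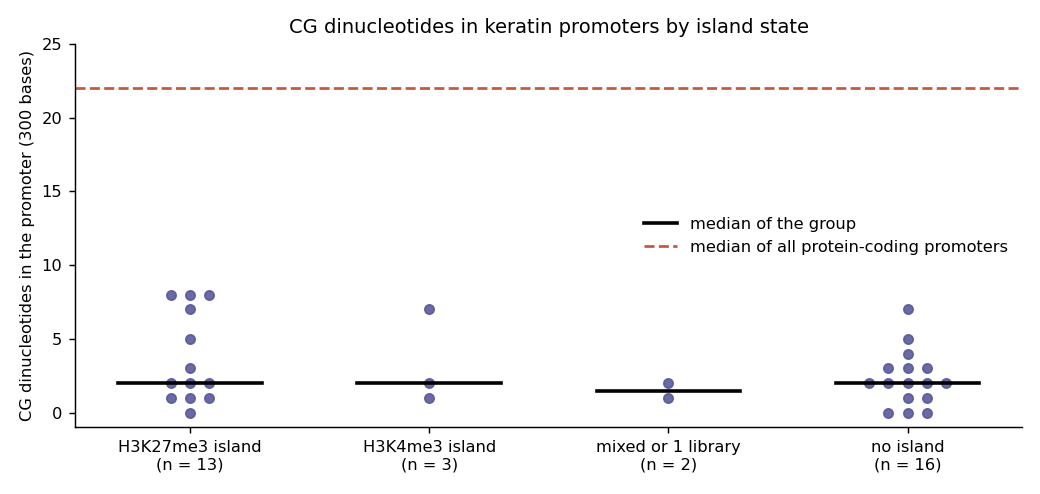
Number of CG dinucleotides in the 300-base RefSeq promoter of each of 34 keratin genes, by the island state of the gene with DMSO; points are genes, black bars group medians, and the dashed line is the median of all protein-coding promoters. Every keratin promoter lies between 0 and 8, below the line at 22, in each state.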

How the data were processed

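H3K27me3 and H3K4me3 ChIP-seq was analysed in 8 libraries of PC9 cells, 2 per group. The authors aligned 50-nt tags to hg19 (GRCh37) and dm3 with BWA (the submitters' notes also name SAMtools 0.1.18), kept unique tags without duplicates, removed tags at random (from the larger library for the standard lists, by the spike-in factor for the others), and called islands per library with SICER (200-bp windows, a gap size of 600 bp with H3K27me3 and 200 bp with H3K4me3, E-value of 1, random background, no pooling). The deposited score of each island depends on tag number and was compared only within a replicate of the standard lists. The 14 lists were intersected with GENCODE 44 genes mapped to GRCh37 in Python 3.11.15 with NumPy 2.4.6. Replicate 2 is the set labelled Dmspike, and libraries were paired within a replicate because tags had been removed within it. SciPy 1.17.1 was used to fit tag density to the scores of the shortest islands (at most 2 windows). The study describes the replicates as biological, and the labels do not say how they were cultured. Lists give no counts, so no counting intervals were computed.

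The genes described one by one are the simple epithelial and basal keratins, those with H3K4me3 at the start in both DMSO libraries, those with the largest and smallest H3K27me3 coverage and the largest differences, those called for H3K4me3, and those that bound the covered blocks. Members, gene lists and tests were chosen with earlier results of these data known. Of 16 marker genes, 15 were found in the annotation used, and 1 of these is not reported here. Coverage, calls, word counts and the density fit were tested on simulated data. Alternatives are given in the closing section.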

Additional observations from a re-analysis of the deposited data

How the results depend on the processing

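The direction of the H3K27me3 log2 ratio held under every alternative computed. Islands with at least 2 times the lowest score of their list gave -2.91 in the spike-in lists and -1.02 in the standard lists, and the windows of 1000 bp on either side of the start gave -0.99 in the standard lists. Leaving out a replicate gave -2.67 to -1.91 (spike-in) and -0.85 to -0.73 (standard), and for H3K4me3 -0.23 to -0.09 and -0.17 to -0.06. Without the replicate block, the ratios of group means were -2.22 and -0.79 for H3K27me3 and -0.14 and -0.13 for H3K4me3. For type I genes alone the H3K4me3 standard ratio turned to 0.0059, within its spread. Type I genes alone gave no H3K27me3 ratio, since no island remained with GSK126.

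The number of keratin genes with H3K4me3 in both DMSO libraries was 3 when an island had to cover 50% of the stretch. The number called lower for H3K27me3 in the standard lists was 12 to 14 when a replicate was left out, and it was 14 without replicate 1, compared to 9. The count called lower for H3K4me3 in the spike-in lists was 0 at 20 percentage points, 2 with the higher score threshold, 2 without the replicate block and 2 to 4 when a replicate was left out. In the standard lists it was 2 with the higher score threshold, 2 without the replicate block and 0 to 3 when a replicate was left out. Alternatives without KRT86, with standard DMSO lists for the island count, with the replicates left out of counts, with the higher score threshold for counts called lower, and for H3K4me3 counts were chosen after seeing the data.

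Depth limits H3K4me3 replicate 2 most, and an absent island there shows that none was called at that depth. Coverage does not measure the height of a mark within an island. With 2 replicates, the smallest exact p was 0.5 for every treatment comparison.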
